A study of Rattus norvegicus with 24 samples.

Results

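Transcripts of 50 chemokines and chemokine receptors were followed in 4 rat tissues, out of 32883 genes counted. The 50 are the genes whose symbol begins with Ccl, Cxcl, Ccr, Cxcr or Ackr followed by a digit, with 2 of the 52 matching symbols left out, and each symbol stood on 1 row of the count table. They comprise 19 CC and 11 CXC ligands, 11 CC and 6 CXC receptors, and 3 atypical receptors. The rats were Sprague-Dawley, 7 months old, and gave mRNA from 4 organs (liver, brain, thymus, spleen) in 24 libraries, 8 groups of 3. In each tissue a group labelled SAM-exposed was set against a sham-exposed group, called SAM and Sham here. The title of the series names polychlorinated biphenyls (PCBs, persistent chlorinated industrial compounds) as the exposure, while the treatment label reads SAM. The sources used here give no dose, duration, route or sex. SAM animals 1, 2 and 3 gave liver and brain, and SAM animals 1, 3 and 5 gave thymus and spleen. The Sham libraries came from animals 13, 14 and 15 (liver), 13, 15 and 16 (brain) and 14, 15 and 17 (thymus and spleen). Whether an animal number means the same rat in every tissue is not stated, and the p-values measure the spread between these libraries.

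Chemokines are small secreted proteins that guide migrating leukocytes by binding receptors coupled to G proteins, and the CC and CXC families are named after the spacing of their first cysteines. Some, such as Ccl19, Ccl21 and Cxcl13, are made constantly in lymphoid organs and place T and B cells in their zones, while others, such as Ccl2, Cxcl1 and Cxcl10, are induced by inflammation or interferon. Atypical receptors bind chemokines and remove them without G protein signalling. In the thymus, chemokines bring in progenitors and move developing thymocytes between cortex and medulla.

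Levels are given as CPM (counts-per-million), scaled by TMM (trimmed mean of M values) over all 24 libraries, with 12.9 to 20.1 M (mega) counts in each. Gene length was not used, so levels of different genes are not compared. The tissue labels held against their markers: summed hepatocyte markers lay between 372360.1 and 460813 CPM in every liver library, neuron markers between 4397 and 5955 CPM in brain, immature thymocyte markers between 3243 and 4137 CPM in thymus, and B cell markers between 2319 and 3095 CPM in spleen. A few libraries stood apart. Mitochondrially encoded genes took 17.8% of the counts of liver SAM 1 (5.71 to 8.07% in the other liver libraries), and 5.64% in thymus SAM 1 and 8.18% in thymus Sham 15 (2.95 to 3.64% in the others). Olfactory bulb markers summed to 371, 300 and 72.8 CPM in brain SAM 1, 2 and 3, against 84.3, 80.9 and 78.6 CPM in brain Sham 13, 15 and 16, so SAM 1 and 2 stood above the rest.

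Of the 50 genes, 43 averaged at least 1 CPM in at least 1 Sham tissue. The number that did so was 36 in thymus, 36 in spleen, 25 in liver and 8 in brain. The mean was highest in spleen for 20 of the 43, in thymus for 15, in liver for 7 and in brain for 1. For 34 of them the highest tissue lay above the next one at an adjusted p under 0.05 (edgeR, 12 Sham libraries in 1 fit, Benjamini-Hochberg over all genes tested). The same count was not made over all genes. Between 2 tissues at a time, 62.3% to 82.5% of the 17204 genes tested differed. The remaining 7 of the 50 genes (Ccl1, Ccl26, Ccl28, Ccr2, Cxcl2, Cxcl3 and Cxcr1) stayed below 1 CPM in every Sham tissue. By mean, CC ligands were most often highest in thymus (9 of 16), whereas CC receptors (7 of 10) and CXC receptors (4 of 5) were most often highest in spleen, and CXC ligands were split between spleen and liver with 4 of 9 each. Above the next tissue in the test were 6 of these 9 CC ligands, 6 of the 7 CC receptors and all 4 CXC receptors. Of the CXC ligands, all 4 in spleen and 1 of the 4 in liver were. With library totals in place of TMM, spleen was highest for 24 of the 43, thymus for 15, liver for 2 and brain for 2, and among the CXC ligands spleen had 6 of 9 and liver 1.

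**Figure D1:**
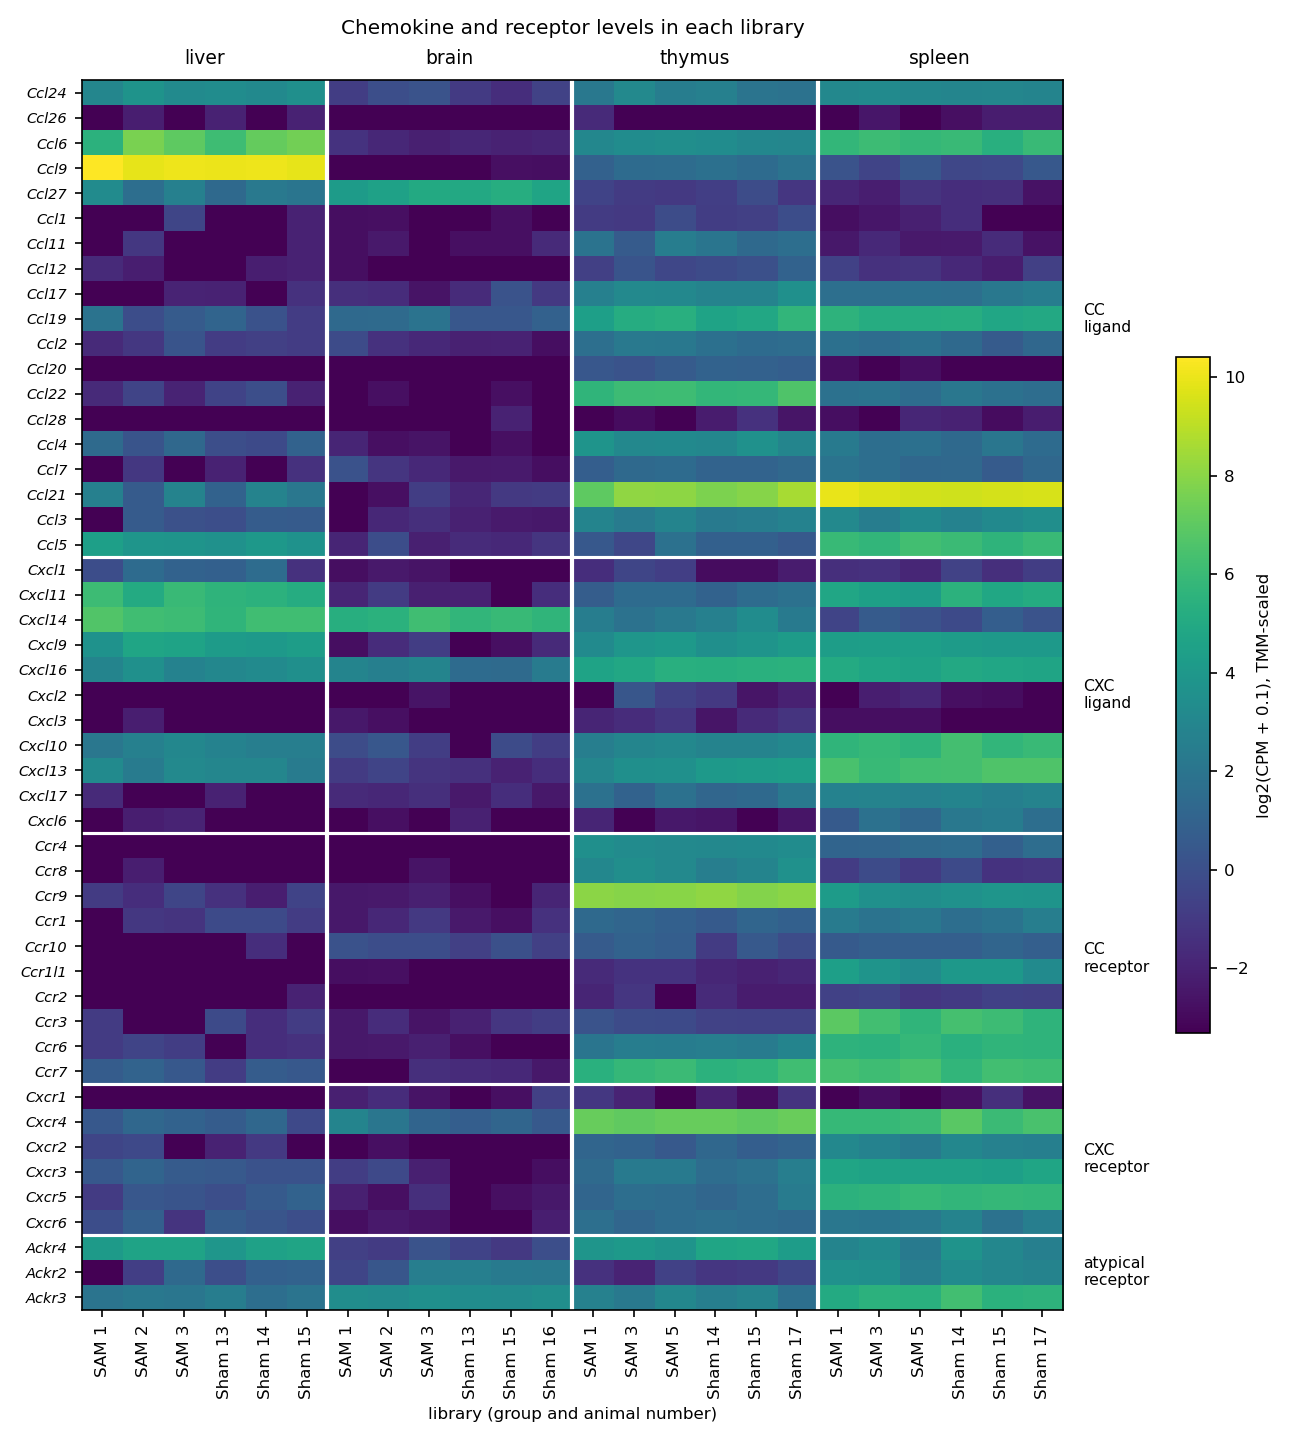
Level of 49 of the 50 genes in each of the 24 libraries, as log2(CPM + 0.1) on a colour scale, with genes in rows by role and libraries in columns by tissue, SAM left of Sham. Thymus and spleen hold most of the bright rows, Ccl9 and Ccl6 stand out in liver, and Ccl27 and Cxcl14 are the bright ligands in brain.

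Most contrasts put more of these genes higher in the lymphoid organ than lower. Each count is given with the share of all 17204 genes tested. Between spleen and brain, 41 of 44 tested genes differed (82.4% of all genes), 39 of them higher in spleen (41% of all genes) and 2 lower (41.4%). Between thymus and brain, 39 of 44 differed (82.5% of all genes), 35 of them higher in thymus (42.2%) and 4 lower (40.3%). Between spleen and liver 37 of 44 differed (76.1%), 31 higher in spleen (41.2%) and 6 lower (34.9%). Between thymus and liver 37 differed (77.3%), 28 higher in thymus (41.1%) and 9 lower (36.1%). Liver and brain differed for 28 of 44 (81.4%), with 24 higher in liver (41.3%). Thymus and spleen differed for 39 of 44 (62.3%), with 16 higher in thymus (31.6%) and 23 higher in spleen (30.7%). In whole tissue, fewer cells of a type and less RNA per cell cannot be told apart.

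The liver side of these contrasts depends on the scaling. TMM factors were 0.34 to 0.459 in liver and 1.19 to 1.49 elsewhere. Scaling by library totals alone, an alternative added after seeing the data, shifted the median gene by 1.73 on the log2 scale for thymus minus liver, by 1.56 for spleen minus liver and by -1.44 for liver minus brain. Shifts among brain, thymus and spleen were 0.12 to 0.29. Directions that turn under this scaling are named with their genes, for the genes reported singly.

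How far apart the tissues lay is plain from 3 ligands. Ccl9, a CC ligand that in mouse acts on Ccr1, was at 1027, 1073 and 973 CPM in the Sham livers, 2.74 to 3.65 CPM in the Sham thymuses and 0.656 to 1.26 CPM in the Sham spleens. Every liver library exceeded every other library by a wide margin, with a log2 difference between liver and thymus, the next tissue, of 8.31 ± 0.19 (SE, edgeR adjusted p = 5.66e-13). Ccl20, the ligand of Ccr6, was at 1.89, 1.81 and 1.62 CPM in the Sham thymuses, 151 counts in all. No count of it was found in any Sham liver, brain or spleen, where a count of 0 allows up to 3 counts per library. Cxcl6, a neutrophil attractant, was at 4.39, 5.37 and 2.97 CPM in the Sham spleens and at or below 0.136 CPM in every other Sham library, a log2 difference between spleen and thymus of 6.33 ± 0.62 (adjusted p = 5.69e-06).

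The RefSeq promoter windows of these genes, on build GRCr8 and 250 bases long up to the start site, were searched on both strands for a kappaB motif bound by NF-kappaB (GGG, 2 bases of any kind, TTTCC) and for the core of the interferon-stimulated response element (GAAA, 2 bases of any kind, GAAA). Windows were at hand for 37 of the 50 genes. The kappaB letters were found in 6 of the 37 (Ccl9, Ccl20, Ccr3, Cxcl1, Cxcl2 and Cxcl6), against 1.3% of all 33469 promoters, and the response element core in 2 (Ccl19 and Cxcl10), against 3.41%. No window of these genes held both patterns as written here, and other forms of the kappaB motif were not searched. Shown are the windows of the 3 ligands above, which share the kappaB letters but were highest in different tissues, of Cxcl10, an interferon-induced ligand highest in spleen, and of Cxcl13, the gene with the lowest exposure p in thymus. Capitals mark the match. It lies at -106 to -97 from the start site in Ccl9 (chr10:68868878-68869127, minus strand), at -89 to -80 in Ccl20 (chr9:91836909-91837158, plus strand), at -88 to -79 in Cxcl6 (chr14:17596418-17596667, minus strand) and at -243 to -234 in Cxcl10 (chr14:15988816-15989065, plus strand). Neither motif was found in the window of Cxcl13 (chr14:13917921-13918170, minus strand).
Ccl9: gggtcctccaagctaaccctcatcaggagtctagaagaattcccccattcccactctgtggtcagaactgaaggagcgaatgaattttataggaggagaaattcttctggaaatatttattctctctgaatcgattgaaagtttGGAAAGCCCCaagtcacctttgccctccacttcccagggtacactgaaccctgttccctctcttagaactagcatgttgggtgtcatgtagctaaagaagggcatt
Ccl20: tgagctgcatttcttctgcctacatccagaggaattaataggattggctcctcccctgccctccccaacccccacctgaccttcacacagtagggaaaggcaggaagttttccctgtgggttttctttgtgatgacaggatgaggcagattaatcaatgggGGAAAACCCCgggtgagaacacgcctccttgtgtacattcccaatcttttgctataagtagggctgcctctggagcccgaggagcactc
Cxcl6: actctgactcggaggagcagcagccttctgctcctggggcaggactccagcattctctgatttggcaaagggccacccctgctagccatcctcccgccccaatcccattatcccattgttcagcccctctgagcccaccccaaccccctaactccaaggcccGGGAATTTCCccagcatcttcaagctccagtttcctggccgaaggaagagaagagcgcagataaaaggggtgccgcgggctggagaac
Cxcl10: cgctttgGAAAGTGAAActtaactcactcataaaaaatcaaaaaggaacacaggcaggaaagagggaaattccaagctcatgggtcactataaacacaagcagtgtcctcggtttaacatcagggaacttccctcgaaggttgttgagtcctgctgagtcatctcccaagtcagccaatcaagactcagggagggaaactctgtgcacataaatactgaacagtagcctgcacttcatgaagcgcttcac
Cxcl13: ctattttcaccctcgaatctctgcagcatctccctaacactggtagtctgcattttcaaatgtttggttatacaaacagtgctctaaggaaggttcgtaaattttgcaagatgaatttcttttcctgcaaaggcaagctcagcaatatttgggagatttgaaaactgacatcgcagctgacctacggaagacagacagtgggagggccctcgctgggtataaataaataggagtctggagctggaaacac
A match describes the letters of the window and not a bound site.

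Ccl21 and Ccl19, the ligands of Ccr7 that draw T cells and dendritic cells into T zones, were carried by both lymphoid organs. Ccl21 stood at 678, 737 and 763 CPM in the Sham spleens and 212, 244 and 385 CPM in the Sham thymuses, without overlap, a log2 difference of 1.37 ± 0.25 (adjusted p = 0.000356). It averaged 4.35 ± 2.52 CPM in liver and 0.332 ± 0.131 CPM in brain (SD, n = 3 each). Ccl19 showed no such step: it averaged 35.7 ± 14.2 CPM in thymus and 32.1 ± 5.36 CPM in spleen, a difference of 0.16 ± 0.25 (adjusted p = 0.616). The receptor Ccr7 was likewise close in both, at 66.7 ± 12.6 CPM in spleen and 56 ± 15.1 CPM in thymus (log2 difference 0.25 ± 0.19, adjusted p = 0.271). Liver and brain lay at 1.09 and 0.169 CPM of Ccr7 on average.

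Cxcl13 and its receptor Cxcr5, which gather B cells into follicles, both peaked in spleen. Cxcl13 was at 78.3, 98.7 and 98.8 CPM in the Sham spleens and 16.8, 18.5 and 20 CPM in the Sham thymuses (log2 difference 2.32 ± 0.13, adjusted p = 1.1e-08), with 6.99 ± 1.54 CPM in liver and 0.224 ± 0.0667 CPM in brain. Cxcr5 was at 54.4 ± 2.63 CPM in spleen and 3.47 ± 1.57 CPM in thymus (3.97 ± 0.26, adjusted p = 3.62e-08). Ccr6, the Ccl20 receptor, also carried by B cells, averaged 47.3 ± 4.14 CPM in spleen and 6.02 ± 0.966 CPM in thymus (2.97 ± 0.18, adjusted p = 2.1e-08). Ligand and receptor parted here, since Ccl20 was counted in thymus and not in the Sham spleens, where Ccr6 was highest.

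**Figure D2:**
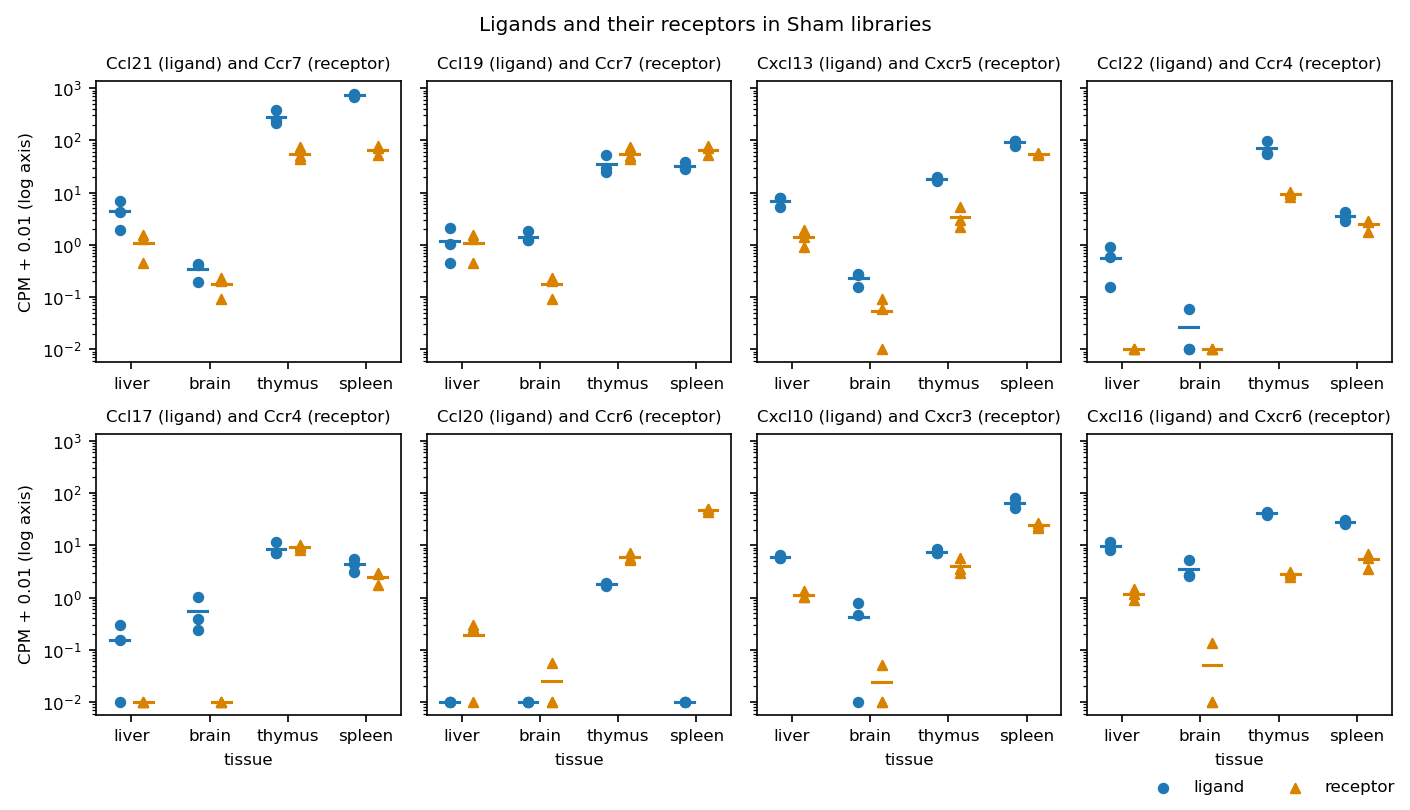
Levels of 8 ligand and receptor pairs in the Sham libraries of each tissue, on a log axis of CPM + 0.01, with circles for ligands, triangles for receptors, 1 mark per library and short lines at the means. Ccl21, Cxcl13, Cxcr5 and Ccr6 peak in spleen and Ccl20, Ccl22 and Ccr4 in thymus, while the thymus and spleen marks of Ccl19 and of Ccr7 overlap.

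Thymus was highest for the Ccr4 system, which in mouse helps thymocytes enter the medulla. Ccl22 was at 54.8, 57.3 and 97.5 CPM in the Sham thymuses and 4.19, 3.39 and 2.91 CPM in the Sham spleens, a log2 difference of 4.32 ± 0.26 (adjusted p = 1.94e-08). Ccl17, the other Ccr4 ligand, averaged 8.6 ± 2.71 CPM in thymus and 4.34 ± 1.2 CPM in spleen (0.99 ± 0.35, adjusted p = 0.026). Ccr4 itself averaged 9.26 ± 1.01 CPM in thymus and 2.48 ± 0.633 CPM in spleen (1.92 ± 0.24, adjusted p = 0.000109), with 0 counts in every liver and brain library. Ccr8, a receptor of Ccl1, also lay above spleen, at 8.4 ± 3.5 CPM in thymus and 0.466 ± 0.253 CPM in spleen (4.18 ± 0.45, adjusted p = 3.74e-05).

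Ccr9, a receptor of thymocytes and gut-homing T cells, was at 283, 232 and 262 CPM in the Sham thymuses and 13.3 ± 0.93 CPM in spleen (log2 difference 4.28 ± 0.15, adjusted p = 4.1e-10). Cxcr4, a receptor of thymocytes and many other leukocytes, was at 148, 134 and 154 CPM in thymus and 117, 65.1 and 88.4 CPM in spleen, a smaller step of 0.69 ± 0.19 (adjusted p = 0.00614). In the Sham livers and brains Ccr9 reached at most 0.58 CPM and Cxcr4 at most 2.27 CPM. Other ligands above spleen in thymus were Ccl11, an eotaxin (3.12 ± 0.702 CPM in thymus, 0.127 ± 0.0863 CPM in spleen), Ccl12, a monocyte attractant in mouse (1.2 ± 0.611 and 0.276 ± 0.211 CPM), Ccl4, an inflammatory ligand (9.32 ± 2.49 and 3.09 ± 0.847 CPM) and the membrane-anchored Cxcl16 (41.5 ± 2.76 and 27.9 ± 2.55 CPM). The monocyte attractants Ccl2 and Ccl7 were highest in thymus by mean, at 2.93 and 2.11 CPM, but did not pass the test against spleen (adjusted p = 0.0944 and 0.869).

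Most CC and CXC receptors were highest in spleen, as counted above. Ccr3, the eotaxin receptor of eosinophils, was at 83.6, 69.3 and 49 CPM in the Sham spleens and 0.559, 0.534 and 0.527 CPM in the Sham thymuses (log2 difference 6.94 ± 0.27, adjusted p = 5.96e-10). Its neighbour Ccr1l1, a Ccr1-like gene of rodents, followed at 13.7 ± 3.75 CPM in spleen and 0.164 ± 0.0189 CPM in thymus. The 2 genes overlap in the RefSeq annotation, so their reads may not be separable. Cxcl16, Cxcr5 and Cxcr6 overlap Zmynd15, Bcl9l and Fyco1. Cxcr3, the receptor of Cxcl9, Cxcl10 and Cxcl11 on effector T cells, averaged 23.9 ± 2.7 CPM in spleen and 4.08 ± 1.49 CPM in thymus (2.55 ± 0.23, adjusted p = 8.11e-07). Ccr1, Ccr10, Cxcr2, the neutrophil receptor, and Cxcr6, the Cxcl16 receptor, were also highest in spleen and exceeded thymus by log2 differences of 1.23, 1.12, 1.78 and 0.95. Library totals alone ended the call of Ccr10 (thymus minus spleen -0.95, adjusted p = 0.0559).

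Among spleen ligands, Ccl5, which attracts T cells, was at 66, 48.2 and 63 CPM in the Sham spleens and 12.2, 16.1 and 12.5 CPM in the Sham livers, with 1.63 ± 0.257 CPM in thymus. Spleen exceeded liver by 2.11 ± 0.16 on the log2 scale (adjusted p = 4.36e-08). Ccl3, a close relative of Ccl4, averaged 8.93 ± 2.16 CPM in spleen and 5.66 ± 0.947 CPM in thymus (0.66 ± 0.21, adjusted p = 0.0145), a call that ended with library totals alone (thymus minus spleen -0.49, adjusted p = 0.0577). Cxcl17, a mucosal chemokine, averaged 6.7 ± 0.707 CPM in spleen and 3.1 ± 1.31 CPM in thymus.

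Of the 3 interferon-induced Cxcr3 ligands, Cxcl10 alone was above every other tissue in spleen with TMM scaling. It was at 65.1 ± 13.2 CPM in spleen, 7.46 ± 0.777 CPM in thymus and 6.03 ± 0.51 CPM in liver, spleen exceeding thymus by 3.12 ± 0.27 on the log2 scale (adjusted p = 4.6e-07). Cxcl11 was at 43.2 ± 6.17 CPM in liver and 36 ± 8.29 CPM in spleen (0.27 ± 0.22, adjusted p = 0.285), with 2.68 ± 0.735 CPM in thymus. Cxcl9 was at similar means in liver (18.6 ± 1.22 CPM), spleen (17.1 ± 1.02 CPM) and thymus (14.5 ± 3.45 CPM), with adjusted p of 0.65 for liver against spleen and 0.345 for spleen against thymus. With library totals alone, spleen exceeded liver by 1.29 for Cxcl11 and by 1.44 for Cxcl9, and thymus exceeded liver by 1.38 for Cxcl9. Cxcl10 and Cxcl11 both overlap Art3, an ADP-ribosyltransferase gene, in RefSeq.

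In liver, Ccl6, a rodent CC chemokine related to Ccl9, was at 70.2, 143 and 179 CPM in the Sham libraries, against 63.9, 40.1 and 62.4 CPM in the Sham spleens. Liver exceeded spleen by 1.24 ± 0.27 on the log2 scale (adjusted p = 0.000839), but with library totals alone the direction turned to 0.33 for spleen minus liver, without a call (adjusted p = 0.231). Cxcl1, a neutrophil attractant, averaged 1.61 ± 1.25 CPM in liver and 0.424 ± 0.15 CPM in spleen (1.98 ± 0.61, adjusted p = 0.0118), a call that library totals also ended (spleen minus liver -0.43, adjusted p = 0.525). Ccl24, an eotaxin, averaged 10.3 ± 1.05 CPM in liver and 7.49 ± 0.236 CPM in spleen (0.45 ± 0.23, adjusted p = 0.088), and library totals placed spleen above liver by 1.11. Thymus minus liver turned for Ccl24 as well, from -1.20 (edgeR adjusted p = 0.000371) to 0.54 with library totals alone (edgeR adjusted p = 0.0446). Of the 3 liver genes above the next tissue, Ccl9 alone kept its call under both scalings.

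Brain held few of these transcripts. Ccl27, the Ccr10 ligand better known from skin, was the gene highest there, at 30.9, 36.9 and 26.3 CPM in the Sham brains and 2.5, 4.67 and 3.91 CPM in the Sham livers, a log2 difference of 3.07 ± 0.28 (adjusted p = 1.98e-07). It overlaps Il11ra1, the interleukin-11 receptor gene, which averaged 22.6 ± 0.536 CPM in the Sham brains and 84.1 ± 3.29 CPM in the Sham livers, so the means of the 2 genes had opposite orders. Cxcl14, a constitutive chemokine of epithelia and brain, averaged 66 ± 13.9 CPM in liver and 54.8 ± 5.99 CPM in brain (0.27 ± 0.23, adjusted p = 0.284), and with library totals alone brain exceeded liver (liver minus brain -1.18, adjusted p = 0.000266). Cxcl16 was at 2.68, 2.61 and 5.24 CPM in the Sham brains. Liver minus brain was 1.45 for Cxcl16 (edgeR adjusted p = 9.22e-05), and -0.00 with library totals alone, which ended the call. Counts were absent from all 6 libraries for 4 genes in brain and 6 in liver.

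Of the atypical receptors, Ackr3 and Ackr2 were highest in spleen, and Ackr4 by mean in thymus. Ackr3, which takes up Cxcl11, was at 55.5 ± 18.2 CPM in spleen, 10.2 ± 0.479 CPM in brain, 5.31 ± 1.95 CPM in thymus and 4.13 ± 1.32 CPM in liver. Spleen exceeded brain by 2.44 ± 0.27 on the log2 scale (adjusted p = 1.7e-06). Thymus minus liver was 0.38 (adjusted p = 0.348), and 2.10 with library totals alone (adjusted p = 4.09e-05). Ackr2, a scavenger of inflammatory CC chemokines, was at 8.17 ± 1.39 CPM in spleen and 5.18 ± 0.766 CPM in brain (0.66 ± 0.22, adjusted p = 0.0151), with 1.51 ± 0.548 CPM in liver and 0.458 ± 0.153 CPM in thymus. The step between these last tissues, -1.72 for thymus minus liver, was 0.01 with library totals alone. Ackr4, a scavenger of Ccl19 and Ccl21, was at 26.7, 28.7 and 19 CPM in the Sham thymuses and 14.8, 23.1 and 25.9 CPM in the Sham livers, which overlapped (0.22 ± 0.28, adjusted p = 0.491), and at 9.08 ± 3.66 CPM in spleen. Liver exceeded spleen by 1.23 ± 0.29, a direction that turned with library totals alone (spleen minus liver 0.33, adjusted p = 0.276). In the Sham livers Acad11, a mitochondrial dehydrogenase gene that overlaps Ackr4, averaged 420 ± 34.9 CPM, against 21.7 ± 6.84 CPM in thymus, and its part in the liver value of Ackr4 was not tested.

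Within a group, the ratio of the highest to the lowest library had a median over genes at 1 CPM or more of 1.36 in SAM and 1.48 in Sham spleens, 1.48 in SAM and 1.53 in Sham thymuses, 1.61 in SAM and 1.44 in Sham brains, and 1.81 in SAM and 1.72 in Sham livers. The widest was 9-fold for Ackr2 in SAM brains and 9.57-fold for Cxcl1 in Sham livers.

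The exposure comparison asked which of these transcripts differ between SAM and Sham animals within a tissue. After removal of genes with too few counts, 42 of the 50 were tested in thymus, 38 in spleen, 19 in liver and 12 in brain. A gene tested only through a group where it is high had to differ, so counts over tested genes do not stand for all 50. edgeR called 0 of them in each tissue, as it called 0% of all genes tested. DESeq2, which filters genes in its own way, called 2 of 42 in thymus (Cxcl13 and Ackr4, with 0.668% of all genes), 1 of 16 in brain (Ccl19, with 3.19%), 0 of 44 in liver (0.0111%) and 0 of 50 in spleen (0.0343%). In 1 edgeR fit of all 24 libraries, 4 of 45 were called in brain (3.29%), 0 in liver and thymus (0.017% each) and 0 in spleen (0%). At an unadjusted p under 0.05 edgeR had 6 of 42 in thymus (6.13% of all genes), 5 of 38 in spleen (4.11%), 3 of 12 in brain (20.5%) and 0 of 19 in liver (2.7%). The SAM and Sham libraries did not overlap for 5 of 42 genes in thymus (11.5% of all genes), 4 of 38 in spleen (9.15%), 2 of 12 in brain (24.5%) and 0 of 19 in liver (10.7%), counts near or below the background in each tissue. By unadjusted p the share was 14.3% in thymus and 13.2% in spleen, above the background in both, and 25% in brain, near it.

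**Figure D3:**
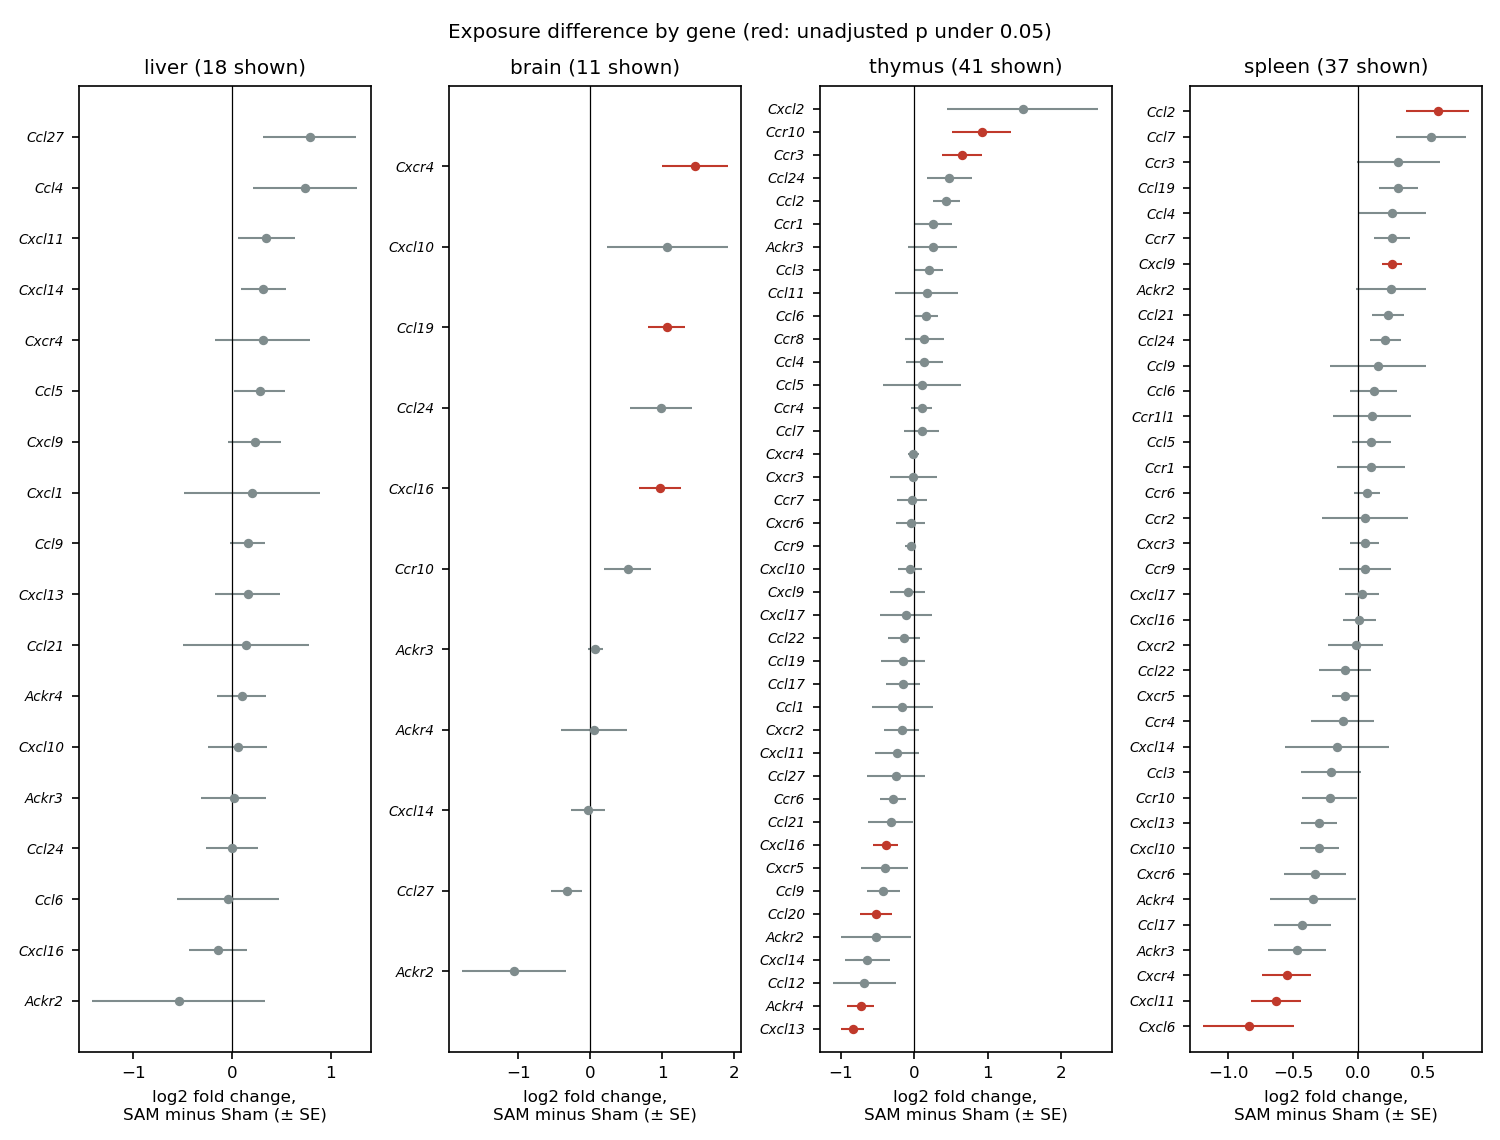
Log2 fold change, SAM minus Sham, of the genes tested in each tissue, 1 of them not drawn, with bars of 1 SE and red marks where the unadjusted edgeR p was under 0.05. No gene passed after adjustment, and Cxcl13 and Ackr4 are the lowest 2 points in thymus.

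In thymus, Cxcl13 had the lowest p of these genes. It was at 7.93, 11.4 and 11.7 CPM in SAM 1, 3 and 5, against 16.8, 18.5 and 20 CPM in Sham 14, 15 and 17. All SAM libraries lay below all Sham libraries. The log2 fold change was -0.84 ± 0.16 (SE), with an adjusted p of 0.337 in edgeR, which did not call it, and of 0.000479 in DESeq2, which did. Leaving out each library in turn kept it between -0.94 and -0.68.

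Ackr4 showed the same separation, at 14, 17.3 and 13.9 CPM in SAM 1, 3 and 5, against 26.7, 28.7 and 19 CPM in Sham 14, 15 and 17. Its log2 fold change was -0.73 ± 0.18, with adjusted p of 0.458 in edgeR and 0.00823 in DESeq2. Acad11, which overlaps Ackr4 in RefSeq, averaged 16.4 ± 3.17 CPM in SAM and 21.7 ± 6.84 CPM in Sham thymuses. The part of Acad11 reads in the Ackr4 difference was not tested. The Ackr4 ligands Ccl19 and Ccl21 showed no such separation: Ccl19 was at 21.2, 35.9 and 40.2 CPM in SAM thymuses and 25.1, 30.2 and 51.9 CPM in Sham thymuses, and Ccl21 at 130, 276 and 271 CPM in SAM thymuses and 212, 244 and 385 CPM in Sham thymuses, both overlapping.

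Ccl20, at 1.25, 1.04 and 1.43 CPM in SAM thymuses and 1.89, 1.81 and 1.62 CPM in Sham thymuses, was the third gene with all SAM libraries lower. The log2 fold change was -0.52 ± 0.22 (edgeR adjusted p = 0.805). Cxcl16 was at 24.5, 30.3 and 40.7 CPM in SAM and 38.6, 41.8 and 44 CPM in Sham, overlapping, with -0.39 ± 0.17 (edgeR adjusted p = 0.812), and -0.24 without SAM 1. Among receptors, 2 at low levels were higher in every SAM library. Ccr3 was at 1.04, 0.774 and 0.736 CPM in SAM and 0.559, 0.534 and 0.527 CPM in Sham (0.65 ± 0.27, edgeR adjusted p = 0.805). Ccr10, the Ccl27 receptor, was at 1.42, 1.86 and 1.6 CPM in SAM and 0.419, 1.32 and 0.808 CPM in Sham (0.92 ± 0.40, edgeR adjusted p = 0.812, and 0.59 without Sham 14). Ccr10 overlaps Cntnap1, a gene of axonal junctions. The lymphoid receptors Ccr9 (-0.04), Cxcr4 (-0.01) and Ccr7 (-0.02) had log2 fold changes near 0.

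Over the 42 genes tested in thymus the median log2 fold change was -0.05, against -0.00 over all genes, and 16 were positive (49.5% of all genes were). Of the 8 CXC ligands tested, 1 was positive, with a median of -0.18. Of the 17 CC ligands tested 8 were positive, and of the 9 CC receptors 6 were.

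Some cell markers also differed between the thymus groups, in either direction. The summed level of 6 thymic epithelium markers, with all 6 lower in SAM by the fitted change and none at 0, was 373, 468 and 432 CPM in SAM 1, 3 and 5, against 729, 712 and 683 CPM in Sham 14, 15 and 17, also without overlap. Dendritic cell markers summed to 34.7, 59 and 47.9 CPM in SAM and 51, 54.4 and 64.4 CPM in Sham, and B cell markers to 74.7, 92 and 114 CPM in SAM and 89.6, 92.5 and 136 CPM in Sham, both overlapping. T cell markers summed to 2711, 2649 and 2732 CPM in SAM and 2541, 2330.3 and 2542 CPM in Sham, without overlap. Their part in the Cxcl13 and Ackr4 differences was not tested. Single libraries also carried many values: of 36 tested genes at 1 CPM or more, SAM 1 held the lowest value of 15 (41.7%, against 20.8% of all such genes) and Sham 17 the highest of 16 (44.4%, against 18.3%). Ccl17, Ccl19, Ccl21, Ccl22, Ccr6, Ccr7, Cxcr3 and Cxcr5 were among those with their lowest value in SAM 1 and their highest in Sham 17. Adipocyte markers, at 395, 65 and 102 CPM in SAM 1, 3 and 5 and 86.3, 574 and 18.2 CPM in Sham 14, 15 and 17, were high in single libraries of both groups.

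**Figure D4:**
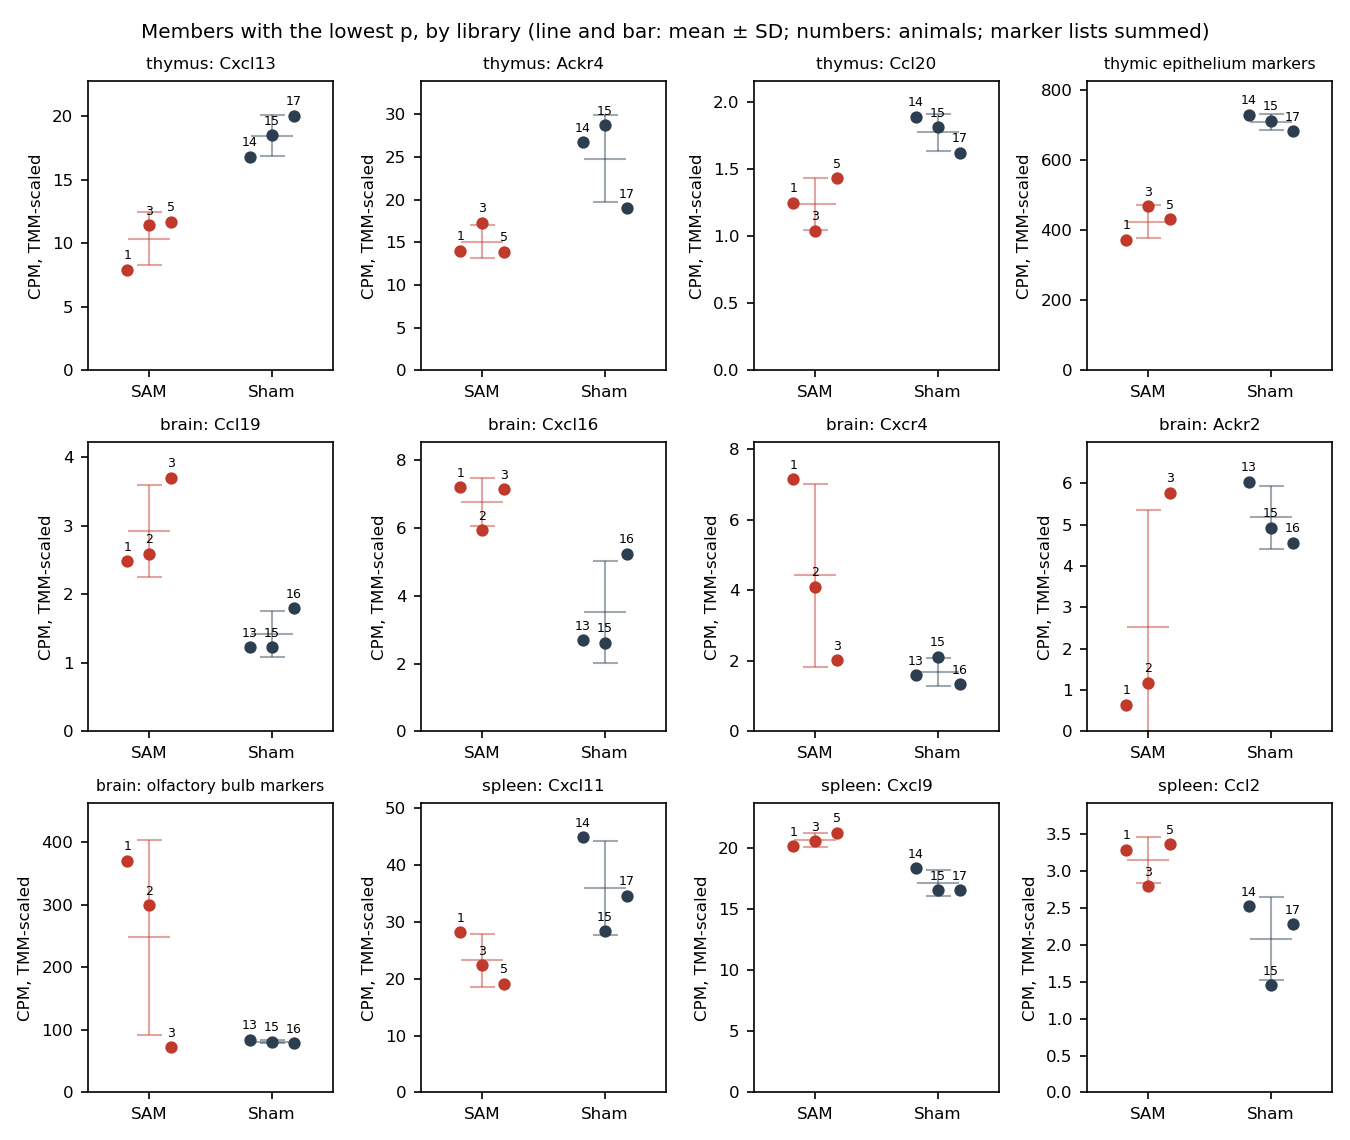
CPM in each library, SAM left of Sham, for genes chosen from those with low exposure p in thymus, brain and spleen and for 2 summed marker lists, with lines and bars at the mean ± SD (n = 3) and animal numbers beside the points. Cxcr4 in spleen, which had a lower p than Ccl2 and overlapping groups, is not drawn. Thymic epithelium markers separate SAM from Sham as Cxcl13 and Ackr4 do, and olfactory bulb markers set brain SAM 1 and 2 apart, where Ackr2 is lowest; the SD bar of Ackr2 is cut at 0.

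In brain, Ccl19 was at 2.48, 2.59 and 3.7 CPM in SAM 1, 2 and 3, against 1.23, 1.23 and 1.8 CPM in Sham 13, 15 and 16, every SAM library lying higher. The log2 fold change was 1.06 ± 0.26 (adjusted p = 0.221 in edgeR and 0.0487 in DESeq2). Cxcl16 was also higher in every SAM library, at 7.19, 5.93 and 7.14 CPM in SAM and 2.68, 2.61 and 5.24 CPM in Sham, with 0.97 ± 0.29 (edgeR adjusted p = 0.221). In both genes the SAM 3 library, whose olfactory bulb marker sum lay with Sham, was high like SAM 1 and 2. SAM 3 stood apart in other markers. Its erythroid markers summed to 371 CPM, against 111 to 164 CPM in the other brain libraries, and its endothelium markers to 170 CPM, against 111 to 128 CPM. Their part in Ccl19 and Cxcl16 was not tested.

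Cxcr4 and Ackr2 instead set SAM 1 and 2 apart from the rest. Cxcr4 was at 7.15, 4.1 and 2.01 CPM in SAM 1, 2 and 3 and 1.59, 2.12 and 1.34 CPM in Sham, with SAM 3 inside the Sham range (1.45 ± 0.46, edgeR adjusted p = 0.221). Ackr2 was at 0.642, 1.18 and 5.78 CPM in SAM 1, 2 and 3 and 6.04, 4.93 and 4.57 CPM in Sham, and again SAM 3 lay inside the Sham range (-1.06 ± 0.72, edgeR adjusted p = 0.393). Without SAM 3 its log2 fold change was -2.48 (edgeR adjusted p = 0.000368), and without SAM 1 and 2, which leaves 1 SAM library assumed to vary like the others, it was 0.18. Ccl27, at 18.5, 22.7 and 32.1 CPM in SAM and 30.9, 36.9 and 26.3 CPM in Sham, had -0.33 ± 0.22, and 0.06 without SAM 1 and 2.

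The median over the 12 genes tested in brain was 0.29, against 0.01 over all genes, with 9 positive (51.4% of all genes). Cxcr3, with too few counts for that fit, entered the fit without SAM 3 only through SAM 1 and 2, so it had to differ there. Without SAM 3 edgeR called 7 of 14 (38.1% of all genes): Ccl19, Cxcl16, Cxcr3 and Cxcr4 higher and Ackr2, Ccl27 and Cxcl14 lower. Without SAM 1 and 2 it called 0 of 13 (0.00642%). Fibroblast markers summed to 115, 119 and 124 CPM in SAM and 89.6, 79.9 and 105 CPM in Sham, without overlap, as did astrocyte markers, at 1445, 1767 and 1497 CPM in SAM and 1285, 1144 and 1319 CPM in Sham, while neuron markers were lower, at 4397, 4397 and 5211 CPM in SAM and 5551, 5955 and 5495 CPM in Sham. Dendritic cell markers were at 9.97, 13.1 and 28.4 CPM in SAM and 24.3, 31.5 and 29.7 CPM in Sham. Their part in these differences, and that of the olfactory bulb markers, was not tested.

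In spleen, Cxcl9 was at 20.1, 20.5 and 21.2 CPM in SAM 1, 3 and 5, against 18.3, 16.5 and 16.5 CPM in Sham 14, 15 and 17, higher in every SAM library by a small step of 0.26 ± 0.08 (edgeR adjusted p = 0.967). Its relative Cxcl11 was at 28.2, 22.4 and 19.1 CPM in SAM and 44.9, 28.4 and 34.6 CPM in Sham, all SAM libraries lower, with -0.63 ± 0.19 (adjusted p = 0.967). Cxcl10, the third of these Cxcr3 ligands, was at 49.8, 59.5 and 48.4 CPM in SAM and 78.9, 52.6 and 63.8 CPM in Sham, and overlapped. Art3, whose gene overlaps Cxcl10 and Cxcl11, averaged 28.5 ± 3.15 CPM in SAM and 34.2 ± 4.66 CPM in Sham spleens, and its part was not tested.

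Cxcr4 was at 59.6, 58.3 and 66.7 CPM in SAM spleens and 117, 65.1 and 88.4 CPM in Sham spleens, overlapping, with -0.55 ± 0.19 (edgeR adjusted p = 0.967), or -0.31 without Sham 14. Ccl2 was at 3.29, 2.79 and 3.36 CPM in SAM and 2.52, 1.45 and 2.28 CPM in Sham, higher in every SAM library, with 0.61 ± 0.24, or 0.38 without Sham 15. Cxcl6 was at 1.36, 3.44 and 2.33 CPM in SAM and 4.39, 5.37 and 2.97 CPM in Sham, overlapping, with -0.84 ± 0.35. Ccl24 was higher in every SAM library by 0.21 ± 0.12. None of these passed in edgeR or in DESeq2. Over the 38 genes tested the median was 0.05, against 0.00 over all genes, with 22 positive (50.8% of all genes). T cell markers summed to 468, 388 and 447 CPM in SAM and 328, 364 and 384 CPM in Sham, and dendritic cell markers to 166, 164 and 151 CPM in SAM and 147, 145 and 141 CPM in Sham, neither overlapping. Their part in these values was not tested.

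In liver, the lowest p belonged to Ccl27, at 9.95, 3.03 and 6.28 CPM in SAM 1, 2 and 3, against 2.5, 4.67 and 3.91 CPM in Sham 13, 14 and 15. The groups overlapped, and the log2 fold change of 0.79 ± 0.47 (edgeR adjusted p = 0.802) was 0.31 without SAM 1, the library with 17.8% mitochondrial counts. Ccl4 (0.74 ± 0.53), Cxcl11 (0.35 ± 0.29), Cxcl14 (0.32 ± 0.23) and Ccl5 (0.28 ± 0.26) had the next lowest p. That of Ccl4 was 1.25 without Sham 15 and 0.50 without Sham 14. Without SAM 1 those of Cxcl11, Cxcl14 and Ccl5 were 0.16, 0.10 and 0.02. Ccl9, at 1362, 942 and 1087 CPM in SAM and 1027, 1073 and 973 CPM in Sham, differed by 0.16 ± 0.18. The median over the 19 genes tested was 0.16, against 0.02 over all genes, with 14 positive (52.2% of all genes). Erythroid markers summed to 2614, 1162 and 1835 CPM in SAM and 802, 1071 and 846 CPM in Sham livers, without overlap, and their part in these values was not tested.

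Ccl6, singled out after its values were seen, varied widely within both liver groups. It was at 45.5, 203 and 128 CPM in SAM 1, 2 and 3, against 70.2, 143 and 179 CPM in Sham 13, 14 and 15, a difference of -0.04 ± 0.52. The summed markers of Kupffer cells, the resident macrophages of liver, put the 6 libraries in the same order as Ccl6, at 197, 780 and 480 CPM in SAM 1, 2 and 3 and 250, 685 and 703 CPM in Sham 13, 14 and 15. Ccl6 was the 1 gene of the 19 in that order, which 194 of the 12130 genes tested in liver (1.6%) shared. The part of Kupffer cells in its level was not tested.

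**Figure D5:**
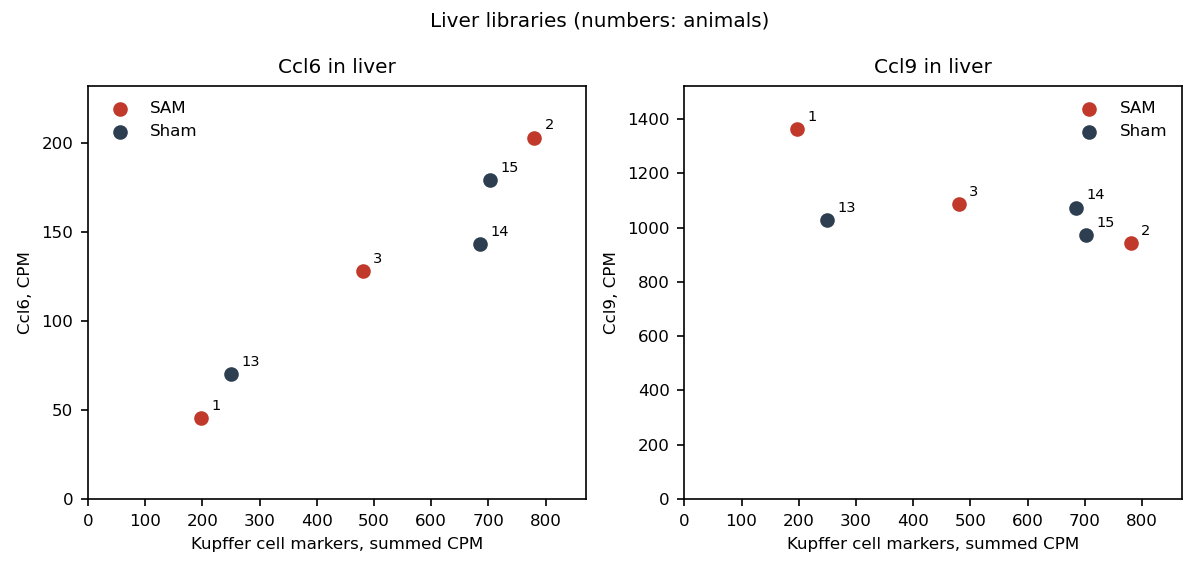
CPM of Ccl6 (left) and Ccl9 (right) in the 6 liver libraries against the summed CPM of 5 Kupffer cell markers, with SAM in red, Sham in dark blue and animal numbers beside the points. Ccl6 lies between 45.5 and 203 CPM and keeps the order of the marker sum, whereas Ccl9 does not.

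Whether the exposure difference varied between tissues was tested by interaction terms in 1 edgeR fit of all 24 libraries. None of 45 genes passed (0.0113% of all genes did), and 7 had an unadjusted p under 0.05 (9.2% of all genes): Cxcr3 (adjusted p = 0.157), Cxcr4 (0.188), Cxcl13 (0.268), Cxcl1, Cxcl16, Ccr6 and Ccl7. With a block for the animal in the edgeR fit, the unadjusted p was 0.127 for Cxcr4, 0.211 for Ccr6 and 0.471 for Ccl7. Those of Cxcr3, Cxcl13, Cxcl1 and Cxcl16 stayed under 0.05. In brain, Cxcr3 and Cxcr4 were highest in SAM 1 and 2, the libraries with raised olfactory bulb markers. Cxcr4 had log2 fold changes of 1.45 in brain, -0.01 in thymus, -0.55 in spleen and 0.31 in liver. Those of Cxcl16 were 0.97 in brain and -0.39 in thymus. Cxcl13 had log2 fold changes of -0.84 in thymus, -0.30 in spleen and 0.16 in liver. Between thymus and spleen alone, 0 of 45 passed (0% of all genes), with 4 at an unadjusted p under 0.05 (4.11%).

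Other genes of the same pathway were read from 4 lists: 9 XC, CX3C and platelet chemokines with related receptors, 23 transducers of receptor signals, 18 cytokines and transcription factors that induce chemokines, and 7 genes that cleave or bind them. edgeR called 0 of each list in each tissue, higher or lower. DESeq2 called 2 of them, 1 in brain and 1 in thymus, where it called 3.19% and 0.668% of all genes. In brain, Rarres2, which encodes the chemoattractant chemerin, averaged 26.2 ± 2.99 CPM in SAM and 15.1 ± 1.31 CPM in Sham (log2 fold change 0.83 ± 0.12, adjusted p = 0.221 in edgeR and 0.000211 in DESeq2). In thymus, Sdc1, a heparan sulfate proteoglycan that binds chemokines, averaged 14.2 ± 3.02 CPM in SAM and 26.4 ± 5.67 CPM in Sham (-0.91 ± 0.21, adjusted p = 0.427 in edgeR and 0.00132 in DESeq2). Irf1, an interferon-induced transcription factor, averaged 97.3 ± 28.1 CPM in SAM and 60.7 ± 10.6 CPM in Sham livers (0.70 ± 0.24), and 154 ± 18.1 CPM in SAM and 126 ± 4.96 CPM in Sham spleens (0.28 ± 0.09), without passing in either (edgeR adjusted p = 0.802 and 0.967). In brain Irf1 was also higher in SAM and had the lowest p of its list, without passing. In liver Nfkb2, of the same list, had a lower p than Irf1. Dpp4, a protease that trims chemokines, averaged 93.8 ± 10.7 CPM in SAM and 74.9 ± 4.87 CPM in Sham spleens (0.33 ± 0.10, adjusted p = 0.967).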

How the data were processed

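RNA was purified on silica columns and made into stranded mRNA libraries, per the labels' protocols. STAR 2.2.1 and build rn6 are named in the submitters' processing notes. Which program counted reads, with which annotation and strand setting, is not given in the sources used here. Of the 50 genes, 17 overlap another gene in RefSeq GRCr8, and how reads of the shared stretch were assigned is not known. Gene counts, whole and not normalized, are what the authors deposited; each column was matched to a sample by tissue and animal number. Per tissue, SAM was compared with Sham by the edgeR 4.0.16 quasi-likelihood test in R 4.3.3 (filterByExpr, TMM), two-sided, with Benjamini-Hochberg adjustment at 0.05 over all genes tested, without a term for the animal. Tissues were compared over the 12 Sham libraries. DESeq2 1.42.0, RLE scaling, no filter, 1 fit of all libraries, a block for the animal and leaving out each library were alternatives. SE is the log2 fold change over the root of F. Named for exposure were genes at an unadjusted p under 0.05 and the 5 lowest p at 1 CPM or more. The tests were run on simulated data first. The genes and lists were chosen with earlier results of these data known. Of the 50 genes, 1 enters the counts but is not reported singly here.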

Additional observations from a re-analysis of the deposited data

How the results depend on the processing

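The exposure count was 0 in liver, thymus and spleen with each library left out in turn, and 0 to 7 in brain, where the 7 came without SAM 3. One fit of all 24 libraries called 4 in brain (Ccl7, Cxcl16, Cxcr3 and Cxcr4, of which Ccl7 and Cxcr3 had too few counts for the brain fit), and DESeq2 called 1 in brain and 2 in thymus. Leaving out brain SAM 1 and 2 turned the log2 fold changes of Ackr2 to 0.18 and of Ccl27 to 0.06. The cause was not tested. Of 215 values of the named genes under alternatives, 203 kept their direction and side of the threshold, 10 passed it and 2 turned. Counts of tissue differences with 1 Sham library left out ran from 34 to 40 (thymus minus spleen), 34 to 37 (thymus minus liver), 39 to 41 (thymus minus brain), 37 to 39 (spleen minus liver), 41 to 42 (spleen minus brain) and 25 to 29 (liver minus brain). Equal animal numbers correlated between tissues by -0.01 to 0.17 (median 0.04, 2 of 25 pairs over 0.1). Unequal numbers correlated by -0.22 to 0.12 (median -0.01, 1 of 83 pairs over 0.1). Equal numbers were not taken as pairs, and these values do not settle whether they are the same rat. With a replicate block for the animal the tissue counts were 39, 34, 38, 36, 39 and 28 in the same order, and the counts for exposure by tissue and for thymus against spleen stayed at 0. A scaled level of 1 CPM rests on 4.72 to 8.26 counts in liver and 15.4 to 28.6 counts elsewhere, so values below it are imprecise. Scaling by library totals alone was chosen after seeing the data.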

Other observations

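Some of these genes had too few counts for the exposure test and still separated the groups, and a few are given here. In thymus, Cxcl1, a neutrophil attractant, had 6, 16 and 11 counts in SAM 1, 3 and 5, against 1, 1 and 3 counts in Sham 14, 15 and 17. Its levels were 0.25, 0.619 and 0.477 CPM in SAM and 0.0349, 0.0356 and 0.105 CPM in Sham, higher in every SAM library. Ccl28, an epithelial ligand of Ccr10, had 1 count in the SAM thymuses together and 13 in the Sham thymuses. In brain, Cxcr3 had 11, 15 and 2 counts in SAM 1, 2 and 3, against 0, 0 and 1 in Sham 13, 15 and 16, and Ccl7 had 23, 7 and 3 counts in SAM against 2, 2 and 1 in Sham. Each was highest in SAM 1 or SAM 2, the libraries with raised olfactory bulb markers, whose part was not tested. These genes were chosen after their values were seen.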
